A study of Mus musculus with 7 samples.

Results

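The ERK feedback inhibitors described here are 10 genes chosen by name from the 55228 rows of a table of read counts: the MAP kinase phosphatases Dusp1, Dusp4, Dusp5 and Dusp6, the Sprouty genes Spry1, Spry2 and Spry4, the Spred genes Spred1 and Spred2, and Phlda1. All 10 were in the table and all 10 passed the filter on low counts, among 15798 genes tested. The libraries came from untreated primary ovarian granulosa cells, the somatic cells around the oocyte, of C57BL/6J mice, and compared 4 wild-type (WT) libraries with 3 from mice labelled Fhl2 KO. FHL2 belongs to the LIM-only proteins, which act as cofactors of transcription and at the cytoskeleton, and the series title sets its loss beside EGF receptor and YAP signalling. The labels give neither the age of the mice, nor the design of the Fhl2 allele, nor whether each library is from its own animal, so the p-values rest on a spread among samples that may be technical. The design text of the series speaks of 5 samples, while 7 are labelled.

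The ERK cascade carries signals from growth factor receptors through RAS, RAF and MEK to the ERK kinases. Active ERK also turns on genes whose products shut the cascade down, so their transcripts are widely used as a readout of ERK output. DUSP1, DUSP4 and DUSP5 are nuclear phosphatases: DUSP1 acts mainly on the p38 and JNK kinases, DUSP4 on ERK and JNK, and DUSP5 on ERK. DUSP6 removes phosphate from ERK in the cytoplasm. Sprouty proteins block the step from the receptor to RAS and RAF, SPRED proteins bring the RAS inhibitor neurofibromin to the membrane, and PHLDA1 is a pleckstrin-homology-domain protein that growth factors and stress induce. In granulosa cells the surge of luteinizing hormone releases EGF-like ligands, and the ERK signalling that follows is needed for ovulation and luteinization.

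The 4 phosphatases share a catalytic signature around their active-site cysteine. The coding bases of this signature are shown because they let the phosphatase that differed most between the genotypes, Dusp4, be set beside its relatives. They are 9 codons each, 5′ to 3′ on the coding strand, from the GENCODE M21 transcripts (GRCm38), with the cysteine codon in capitals.
Dusp1: catTGCcaggccggcatctcccggtca
Dusp4: cacTGCcaggccggcatctcccgatca
Dusp5: cacTGCgaagctggggtttcccggtcg
Dusp6: catTGCttggcaggtatcagccgctct
The stretch of Dusp4 lies in exon 4 of 4 at chr8:34818433-34818459 on the plus strand. That of Dusp1 lies in exon 4 of 4 at chr17:26506589-26506615 on the minus strand, and 25 of its 27 bases equal those of Dusp4. Dusp5, in exon 4 of 4 at chr19:53540951-53540977 on the plus strand, shares 19 bases with Dusp4, and Dusp6, in exon 3 of 3 at chr10:99266027-99266053 on the plus strand, shares 18. No stretch equals another, and the rule by which reads shared between similar genes were counted is not given in the sources used here.

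The stretches before the gene start are shown for 3 phosphatases with different known inputs: Dusp1, the cAMP- and stress-induced member, Dusp5, a target of serum response factor, and Dusp6, which rose in Fhl2 KO. They are the 250 bases upstream of the RefSeq start (GRCm38.p6), 5′ to 3′ in the direction of transcription, with matches to the motifs below in capitals.
Dusp1: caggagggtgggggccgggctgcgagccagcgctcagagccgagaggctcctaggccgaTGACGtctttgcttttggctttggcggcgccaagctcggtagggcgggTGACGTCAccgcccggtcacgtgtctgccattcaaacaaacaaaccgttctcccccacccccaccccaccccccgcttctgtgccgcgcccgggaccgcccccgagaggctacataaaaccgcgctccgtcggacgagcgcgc
Dusp5: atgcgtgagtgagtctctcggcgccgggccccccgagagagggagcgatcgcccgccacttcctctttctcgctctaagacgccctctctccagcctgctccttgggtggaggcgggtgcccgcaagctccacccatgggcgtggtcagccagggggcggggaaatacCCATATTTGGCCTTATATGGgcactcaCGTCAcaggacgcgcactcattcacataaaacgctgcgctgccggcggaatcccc
Dusp6: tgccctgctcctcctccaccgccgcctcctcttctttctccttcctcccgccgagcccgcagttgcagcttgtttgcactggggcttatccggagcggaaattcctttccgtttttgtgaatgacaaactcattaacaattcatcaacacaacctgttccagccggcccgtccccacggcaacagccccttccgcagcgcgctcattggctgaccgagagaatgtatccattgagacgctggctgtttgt
These windows lie at chr17:26508473-26508722 on the minus strand, chr19:53528895-53529144 on the plus strand and chr10:99262981-99263230 on the plus strand. Both strands were searched for the cAMP response element TGACGTCA, its core TGACG (which the full element contains), the AP-1 site TGANTCA, the CArG box that serum response factor binds, the ETS site CCGGAAG and the TEAD site GGAATG. Dusp1 held the full cAMP response element from 143 to 136 bases before the start, a match found in 1.55% of 32851 windows of this length, and another core from 191 to 187. Dusp5 held a pair of CArG boxes in a row, from 82 to 63 bases before the start, where 1.47% of windows hold any, and a core of the cAMP response element (17.8% of windows). Dusp6 held none of the 6 motifs in this window. The AP-1, ETS and TEAD letters occur in 6.75%, 6.91% and 12.6% of windows. Of the members with a window, Spry1 held a TEAD match, Spred2 a cAMP core and Spry2 none; the Spred1 window did not match the start of an annotated transcript and is not used. Dusp4, Phlda1 and Spry4 are named only. A match is a description of the letters and not a site shown to be used.

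The 7 libraries held 38855596 to 50514556 counts, so that 3 counts, taken as a floor, stood at 0.0597 to 0.0774 CPM (a gene's count scaled to the library's total), for counting error only. Fhl2 itself averaged 108 ± 5.63 CPM over the 4 WT and 58.4 ± 9.57 CPM over the 3 KO libraries (SD), so reads of the targeted gene remained in the KO libraries. Of 11 tested granulosa markers 4 were higher (Fshr, Inha, Nr5a1 and Kitl) and 5 lower (Amh, Foxl2, Inhba, Inhbb and Fst) in KO. Inha, the inhibin alpha subunit, stood at 1042 ± 53.5 CPM in WT and 1699 ± 121 CPM in KO. Inhbb, an inhibin beta subunit, went the other way, at 389 ± 34.2 CPM in WT and 229 ± 26.8 CPM in KO. Fshr, the receptor of follicle-stimulating hormone, stood at 5.40 ± 0.439 CPM in WT and 7.52 ± 2.23 CPM in KO. Its KO library 2, at 5.44 CPM, lay within the WT range of 4.80 to 5.75 CPM. Cyp19a1, the aromatase gene, had 0 counts in the 4 WT libraries and 8, 17 and 6 in KO libraries 1 to 3, too few to pass the filter on low counts. The libraries also differed in how log2 CPM followed transcript length: per doubling of length it changed by 0.0581 to 0.0855 in WT, by -0.00163 in KO library 1, and by -0.170 and -0.133 in KO libraries 2 and 3. Fold changes with these trends in length and GC content removed, called corrected values, are therefore given beside the uncorrected ones. With the correction 3 granulosa markers were higher and 6 lower. Fshr no longer passed, at a log2 fold change of 0.47 (edgeR adjusted p = 0.0477) and 0.43 corrected (edgeR adjusted p = 0.0815). In bulk RNA, fewer cells of a type and less RNA per cell cannot be told apart.

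In the Fhl2 KO libraries Dusp4 and Phlda1 rose most, Dusp6 rose by a smaller amount and Spred2 fell, while the other 6 genes did not pass the test. Fold changes were 1.97 for Dusp4, 1.80 for Phlda1, 1.29 for Dusp6 and 0.770 for Spred2 (KO over WT, n = 3 and 4). With edgeR's quasi-likelihood test and Benjamini-Hochberg adjustment over all genes tested, 3 of the 10 members were higher and 1 was lower past adjusted p 0.05. Among all genes tested 13.5% were higher and 15.6% lower, 29.0% in all, so the share of members called in either direction was 4 of 10 against that background. The median log2 fold change of the members was 0.20 (0.069 corrected) against -0.0002 (0.011 corrected) for all genes tested. After the correction the same 3 genes were higher and none was lower, where 12.2% of genes were higher and 11.4% lower, 23.6% in all.

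**Figure D1:**
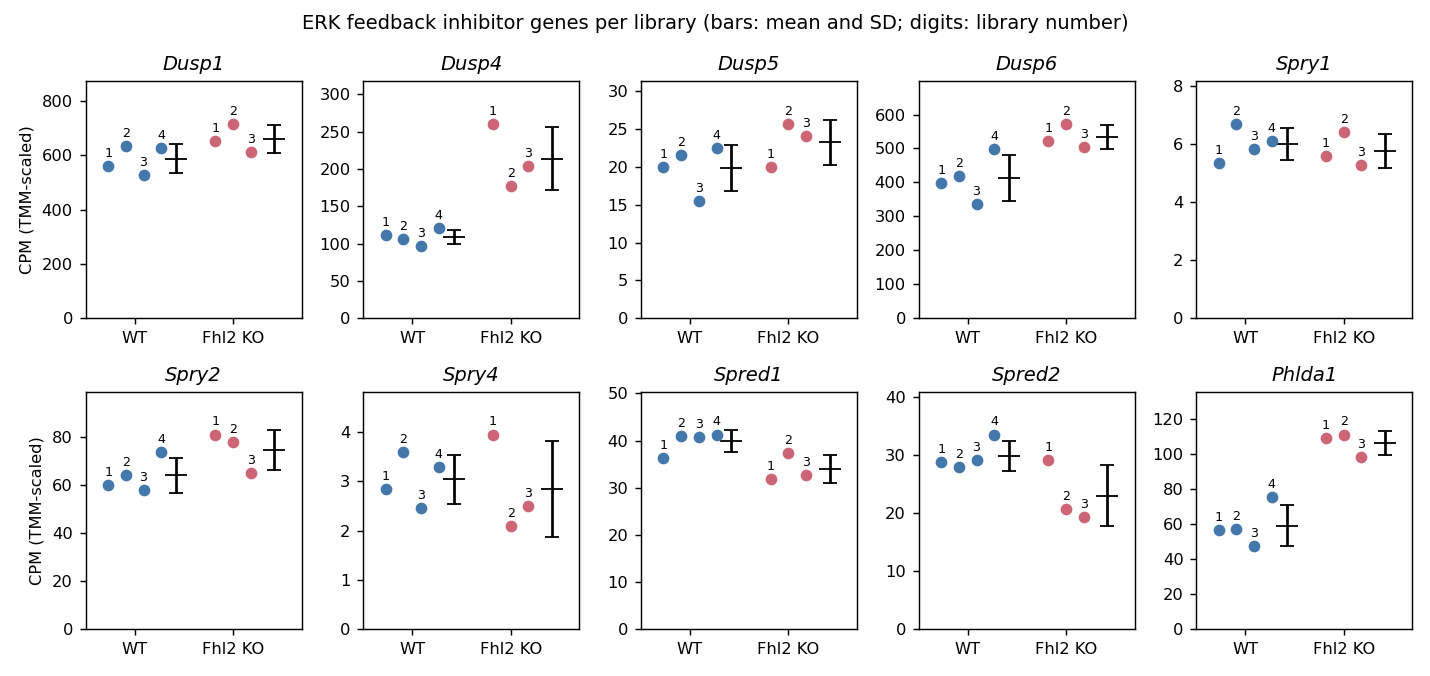
Level of each gene in every library as TMM-scaled CPM (y axis, linear from 0), with WT libraries in blue, Fhl2 KO libraries in red and black bars for the mean and SD. For Dusp4, Dusp6 and Phlda1 all KO points lie above all WT points, while for Spred2 KO library 1 lies among the WT libraries.

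Levels per length set the genes in order. Scaled by merged exon length and by the library's sum of such values (TPM, the length-scaled counterpart of CPM), Dusp1 was the most abundant member in WT at 563 ± 51.1 TPM, followed by Dusp6 at 419 ± 68.1 TPM (SD, n = 4). Their WT ranges overlapped, from 499.9 to 609.8 for Dusp1 and from 338 to 503 for Dusp6. Dusp4 (126 ± 11.6 TPM), Spry2 (97.0 ± 10.8 TPM) and Phlda1 (85.1 ± 16.6 TPM) formed a middle group in which each range overlapped the next. Dusp5 (25.5 ± 4.04 TPM), Spred2 (20.4 ± 1.67 TPM) and Spred1 (18.6 ± 0.992 TPM) formed a lower group, again with overlapping neighbours. Spry1 at 6.53 ± 0.603 TPM and Spry4 at 2.03 ± 0.337 TPM were lowest and lay apart from their neighbours and from each other. In KO the order was the same except that Phlda1 (145 ± 12.6 TPM) stood above Spry2 (108 ± 15.4 TPM). The 4 phosphatases together made up 82.4% to 83.9% of the summed TPM of the 10 genes in the WT libraries and 82.1% to 83.1% in the KO libraries. Within that sum the part of Dusp1 and Dusp6 together was 71.6% to 73.2% in WT and 63.9%, 69.5% and 66.9% in KO libraries 1 to 3.

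**Figure D2:**
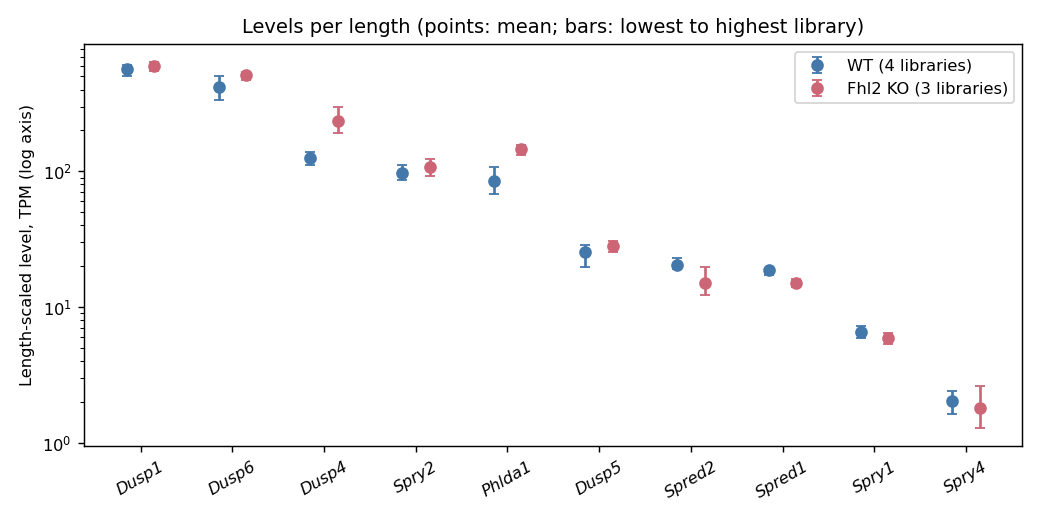
Length-scaled level of each gene in TPM on a log axis, ordered by the WT mean, with points for the group mean and bars from the lowest to the highest library. Dusp1 and Dusp6 lie near the top in both genotypes, and Phlda1 passes Spry2 in KO.

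Among the nuclear phosphatases, Dusp4 carried the largest difference of the 10 genes. Dusp4 (chromosome 8, 34807297 to 34819894, plus strand) stood at 111, 106, 97.3 and 120.4 CPM in WT libraries 1 to 4 and at 261, 177 and 204 CPM in KO libraries 1 to 3. Every KO library was above every WT library, with KO library 1 the highest. The log2 fold change was 0.98 (SE 0.116, edgeR adjusted p = 4.13e-05), and 0.87 (SE 0.114, edgeR adjusted p = 2.92e-04) after the correction. Over 17 alternative settings the log2 fold change of Dusp4 ran from 0.83 to 1.26 and each passed (edgeR or DESeq2 adjusted p from 3.47e-20 to 8.38e-04). The KO libraries varied more in Dusp4 than the WT libraries, with a coefficient of variation of 19.9% against 8.91%, where the medians over 9112 tested genes with a mean of at least 10 CPM were 10.5% and 6.27%.

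Dusp1 and Dusp5, the other nuclear phosphatases, did not pass. Dusp1 (chromosome 17, 26505590 to 26562128, minus strand) stood at 561, 635, 528 and 628 CPM in WT and 653, 716 and 612 CPM in KO. KO library 3 lay within the WT range and the other KO libraries above it. Its log2 fold change was 0.17 (SE 0.0957, edgeR adjusted p = 0.200), and 0.038 corrected (edgeR adjusted p = 0.774). Dusp5 (chromosome 19, 53529109 to 53542431, plus strand) stood at 20.01, 21.5, 15.5 and 22.5 CPM in WT and 19.96, 25.7 and 24.1 CPM in KO. KO library 1 lay among the WT libraries and KO libraries 2 and 3 above them. Its log2 fold change was 0.23 (SE 0.127, edgeR adjusted p = 0.191), and it passed without KO library 1 (0.34, edgeR adjusted p = 0.0355) but stood at 0.085 after the correction. The read count of Dusp4 relative to that of Dusp1 in the same library, a ratio that library scaling does not touch, was 0.167 to 0.198 in WT and 0.399, 0.248 and 0.333 in KO libraries 1 to 3. That ratio was chosen after the values were seen and was not tested.

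Dusp6, the cytoplasmic ERK phosphatase (chromosome 10, 99263231 to 99267489, plus strand), rose by a smaller amount. It stood at 398, 420.1, 337 and 499 CPM in WT libraries 1 to 4 and at 522, 573 and 504 CPM in KO libraries 1 to 3. The groups did not overlap, with WT library 4 just below KO library 3. The log2 fold change was 0.37 (SE 0.112, edgeR adjusted p = 0.0220), and 0.36 corrected (edgeR adjusted p = 0.0197). It no longer passed when WT library 1 (edgeR adjusted p = 0.0561), WT library 3 (0.0805), KO library 2 (0.0580) or KO library 3 (0.0624) was left out, or with KO library 1 as the lone KO sample (0.414), at log2 fold changes of 0.28 to 0.40. Of the 10 members, 3 had all KO libraries above all WT libraries, where 16.4% of genes tested did, and none had all below (17.7%; 34.2% in either direction).

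Phlda1 (chromosome 10, 111506286 to 111508645, plus strand) stood at 56.6, 57.2, 47.7 and 75.3 CPM in WT libraries 1 to 4 and at 109, 111 and 98.6 CPM in KO libraries 1 to 3. All KO libraries lay above all WT libraries and close together, with WT library 4 the nearest. Its log2 fold change was 0.85 (SE 0.123, edgeR adjusted p = 3.21e-04), and 0.65 corrected (edgeR adjusted p = 0.00716). It passed in 16 of 17 alternatives, the exception being KO library 1 as the lone KO sample (0.88, edgeR adjusted p = 0.0778). Its read count relative to that of Dusp6 in the same library was 0.136 to 0.151 in WT and 0.194 to 0.209 in KO, a ratio chosen after the values were seen and not tested.

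The Sprouty genes did not pass. Spry2 (chromosome 14, 105891947 to 105896819, minus strand), the most abundant of them, stood at 59.98, 64.1, 57.7 and 73.8 CPM in WT and 80.9, 77.8 and 65.0 CPM in KO. KO libraries 1 and 2 were above all WT libraries and KO library 3 was within their range. Its log2 fold change was 0.22 (SE 0.105, edgeR adjusted p = 0.118), positive in all 17 alternatives (0.10 to 0.34) and past the threshold in none. Spry1 (chromosome 3, 37639947 to 37644598, plus strand) stood at 5.35 to 6.69 CPM in WT and 5.27 to 6.42 CPM in KO, overlapping throughout (log2 fold change -0.059, SE 0.142, edgeR adjusted p = 0.792). Spry4 (chromosome 18, 38586247 to 38601415, minus strand) had 110 to 180 reads in WT and 155, 98 and 114 reads in KO libraries 1 to 3, or 3.95, 2.09 and 2.50 CPM. KO library 1 was thus the highest of all 7 and KO library 2 the lowest. The log2 fold change of Spry4 was -0.10 (SE 0.222, edgeR adjusted p = 0.764), and its sign differed between settings.

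Of the Spred genes, Spred2 fell and Spred1 did not pass. Spred2 (chromosome 11, 19924375 to 20024026, plus strand) stood at 28.7, 27.9, 29.0 and 33.5 CPM in WT libraries 1 to 4 and at 29.1, 20.6 and 19.2 CPM in KO libraries 1 to 3. KO libraries 2 and 3 lay below all WT libraries, whereas KO library 1 lay inside the WT range. Its log2 fold change was -0.38 (SE 0.130, edgeR adjusted p = 0.0383), and it passed in 7 of 17 alternatives. The change was -0.56 without KO library 1 (edgeR adjusted p = 2.26e-04), -0.037 for KO library 1 as the lone KO sample (0.916) and -0.24 after the correction (0.109). It also failed to pass when the library left out was WT library 1 (edgeR adjusted p = 0.0656), WT library 3 (0.0769), WT library 4 (0.118), KO library 2 (0.117) or KO library 3 (0.221). Spred1 (chromosome 2, 117121374 to 117182279, plus strand) stood at 36.3, 41.1, 40.8 and 41.3 CPM in WT and 31.8, 37.4 and 32.7 CPM in KO, with KO library 2 above WT library 1. Its log2 fold change was -0.23 (SE 0.0968, edgeR adjusted p = 0.0812), and 0.038 corrected (0.802). The merged exons of Spred1 and Spred2 came to 6784 and 4619 bases, and those of the other 8 members to 2087 to 4755 bases. The read count of Spry2 relative to Spred2 was 1.99 to 2.30 in WT and 2.79, 3.77 and 3.39 in KO libraries 1 to 3, which was not tested.

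**Figure D3:**
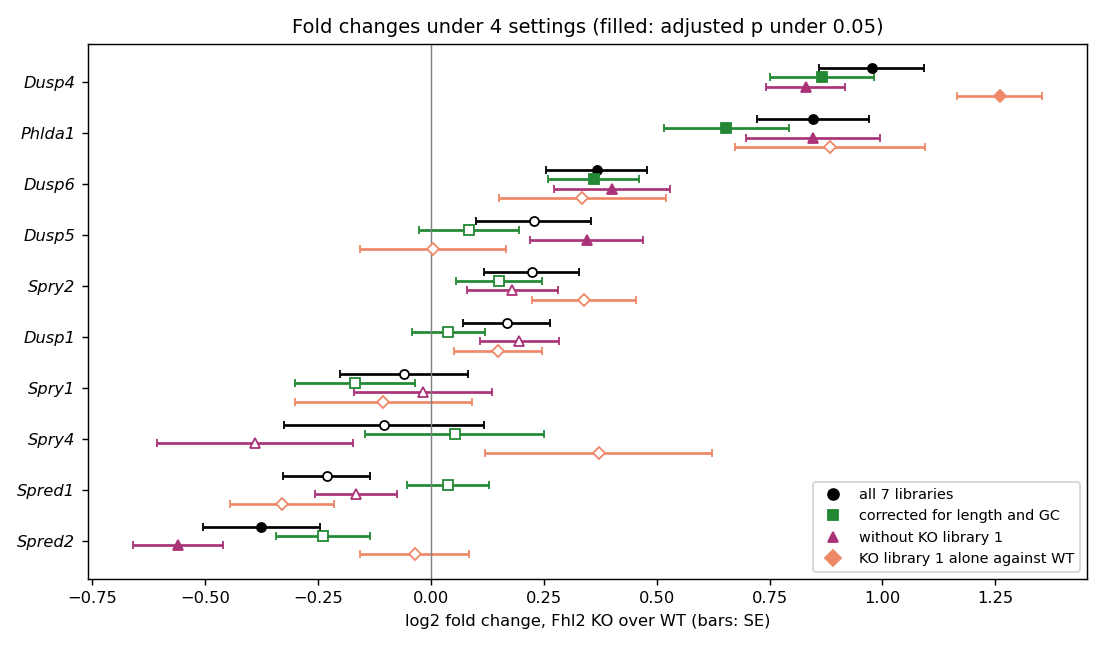
Log2 fold change, Fhl2 KO over WT, of each gene with its SE under 4 settings: all 7 libraries, length and GC trends removed, KO library 1 left out, and KO library 1 as the lone KO sample. Filled symbols passed adjusted p 0.05; Dusp4 is filled under all 4, and Spred2 lies between -0.56 and -0.037.

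The same library was often the extreme one for several members. Such counts were not made over all genes tested, so they are not shown to be particular to the 10 genes. Among the WT libraries, library 3 was the lowest for 7 of the 10 genes (Dusp1, Dusp4, Dusp5, Dusp6, Spry2, Spry4 and Phlda1) and library 4 the highest for 7 (Dusp4, Dusp5, Dusp6, Spry2, Spred1, Spred2 and Phlda1). Among the KO libraries, library 3 was the lowest for 6 genes and library 2 the highest for 6. Summed over the 10 genes, the level was 1280, 1384, 1161 and 1502 CPM in WT libraries 1 to 4 and 1717, 1747 and 1568 CPM in KO libraries 1 to 3, a sum in which Dusp1 and Dusp6 weigh most. The coefficient of variation among WT libraries ran from 5.94% for Spred1 to 19.5% for Phlda1, with a median of 10.2% against 6.27% over 9112 tested genes with a mean of at least 10 CPM. Among KO libraries the median was 10.8% for the members and 10.5% for those genes. The annotated spans of Dusp1 (Ergic1), Dusp5, Spry1, Spry4 and Phlda1 overlap other genes, some on the opposite strand, and reads of such pairs cannot be told apart where the strand setting of the counting is not given.

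Profiles were compared by the root mean square difference of mean-centred log2 CPM over the 7 libraries. Of 9111 tested genes with a mean of at least 10 CPM, those with predicted-gene symbols, such as Gm or Rik names, were left out of the ranking. Among the rest, the genes most like Dusp4 were Me2 (0.127) and Rims4 (0.159). Me2, a mitochondrial malic enzyme, averaged 189 ± 6.80 CPM in WT and 374 ± 22.3 CPM in KO (mean ± SD over the 4 and 3 libraries). The genes most like Phlda1 were Plk2 (0.0833), a polo-like kinase, and Oasl2 (0.152). Plk2 went from 55.4 ± 10.3 to 105.5 ± 9.28 CPM. Nearest to Dusp6 were Acot2 (0.0790), an acyl-CoA thioesterase, and Atp5g1 (0.0901), a subunit gene of ATP synthase, and nearest to Spred2 were Nedd4l (0.050), a ubiquitin ligase, and Zbtb12 (0.0517). Within the 10 genes, Dusp1 and Spry2 were the closest pair, at 0.0919, and Dusp4 and Phlda1 were nearest to each other, at 0.193. These distances are descriptions over 7 libraries in 2 genotypes and were not tested.

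Relatives of the 10 genes were read from lists of the same families. Of the 6 other MAP kinase phosphatases, all tested, 1 fell and none rose (median 0.089), with edgeR at unadjusted p under 0.05 and with DESeq2 alike. That was Dusp7, a cytoplasmic ERK phosphatase close to DUSP6, which went from 14.2 ± 0.417 to 10.2 ± 0.271 CPM, a log2 fold change of -0.47 (SE 0.107, edgeR adjusted p = 0.00507). Dusp16 (-0.23), Dusp10 (0.16) and Dusp8 (0.12) did not pass (edgeR adjusted p of 0.127, 0.234 and 0.439). Of 10 tested atypical dual-specificity phosphatases, 2 rose and 2 fell (median -0.020). They were Dusp12 (0.51) and Dusp23 (0.48), and Dusp11 (-0.38) and Dusp18 (-0.45), of which Dusp12 passed after the correction. Spred3 (0.084) and Phlda3 (0.18, -0.044 corrected) did not pass.

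Of 23 core genes of the ERK cascade, all tested, 1 rose and 4 fell (median 0.0061), and with the correction 4 rose and none fell. Shc1, an adaptor of receptor tyrosine kinases, went from 73.96 ± 3.17 to 93.1 ± 8.68 CPM (log2 fold change 0.33, edgeR adjusted p = 0.0127; 0.31 corrected). Sos1, the exchange factor that loads RAS, Ptpn11, the phosphatase SHP2, and Frs2, the docking protein of FGF receptors, fell by 0.50, 0.46 and 0.33, and stood at -0.13, -0.13 and -0.017 after the correction, no longer past the threshold. The 12 tested p38 and JNK pathway genes held 1 that rose, Mapk13, the p38 delta kinase, from 9.11 ± 0.278 to 17.8 ± 2.28 CPM, a log2 fold change of 0.96 (SE 0.115, edgeR adjusted p = 2.91e-05). Map2k7 (0.23), Mapk11 (-0.52) and Map2k4 (-0.17) did not pass, though Map2k7 did after the correction (edgeR adjusted p = 0.0424).

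Among 12 other inhibitors of RAS and of receptors, all tested, 7 fell and 1 rose (median -0.36), but after the correction 2 fell and none rose (median -0.016). Rasal2, a RAS GTPase activator, went from 31.7 ± 2.44 to 18.4 ± 4.47 CPM (log2 fold change -0.79, corrected -0.34), and Lrig3 fell by 0.58 (corrected -0.52); both passed in either case. Nf1, the neurofibromin that SPRED proteins bind, changed by -0.40 (edgeR adjusted p = 0.0121), and by 0.088 after the correction (0.399). Il17rd, an inhibitor of FGF signalling, changed by -0.45 and by -0.072 corrected.

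Other transcripts known to respond to ERK moved both ways. Of 12 tested, 3 rose and 2 fell (median 0.14), and 2 rose and 2 fell after the correction. Epha2, an ephrin receptor, went from 150 ± 8.73 to 231 ± 23.4 CPM, a log2 fold change of 0.62 (SE 0.0924, edgeR adjusted p = 2.35e-04). Fosl1, the AP-1 factor FRA1, went from 0.845 ± 0.385 to 2.53 ± 0.406 CPM (1.57, SE 0.311), and Ier3 rose by 0.47 (0.21 and not past the threshold corrected). Epha4 fell by 0.77 (-0.45 and not past the threshold corrected). Fos itself, an immediate early gene named after its value was seen, fell from 874 ± 88.9 to 684 ± 101 CPM (-0.35, edgeR adjusted p = 0.0241). The ETS factor genes Etv4 (0.29) and Etv5 (0.11), Ccnd1 (-0.59) and Egr1 (-0.099), also named after their values were seen, did not pass (edgeR adjusted p of 0.318, 0.420, 0.178 and 0.568). Etv4 and Ccnd1 were low, at 2.13 ± 0.222 and 1.26 ± 0.384 CPM in WT, with SEs of 0.211 and 0.323. Etv5 and Egr1 stood at 26.6 ± 1.71 and 2370 ± 281 CPM in WT, with SEs of 0.101 and 0.119.

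Upstream of the cascade, 1 of 11 tested ERBB ligands and receptors rose and 2 fell, and 3 rose and 1 fell after the correction. Hbegf rose by 0.31 (19.1 ± 0.762 to 23.8 ± 2.40 CPM), Egf fell by 1.31, and Egfr, the EGF receptor, fell from 29.9 ± 0.942 to 21.7 ± 3.58 CPM (-0.46, edgeR adjusted p = 0.00590) but stood at -0.013 corrected (0.923). Of 8 tested genes in a list of FGF receptors and ligands that also held Sdc4, the syndecan-4 gene, 2 rose and 4 fell (median -0.46). After the correction 1 rose and 3 fell. The 2 that rose were Fgfr4 and Sdc4, the latter by 0.42 (edgeR adjusted p = 0.0386; 0.38 corrected, 0.0910). Fgfr2 went from 76.7 ± 2.26 to 41.9 ± 5.19 CPM, a log2 fold change of -0.87 (SE 0.0973, edgeR adjusted p = 1.24e-05; -0.72 corrected), and Fgfr1 from 33.3 ± 1.24 to 24.6 ± 1.23 CPM (-0.44; -0.30 corrected). Fgf18 fell by 0.59, and Fgfr4, low in WT at 0.257 ± 0.0287 CPM, rose to 0.719 ± 0.189 CPM.

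**Figure D4:**
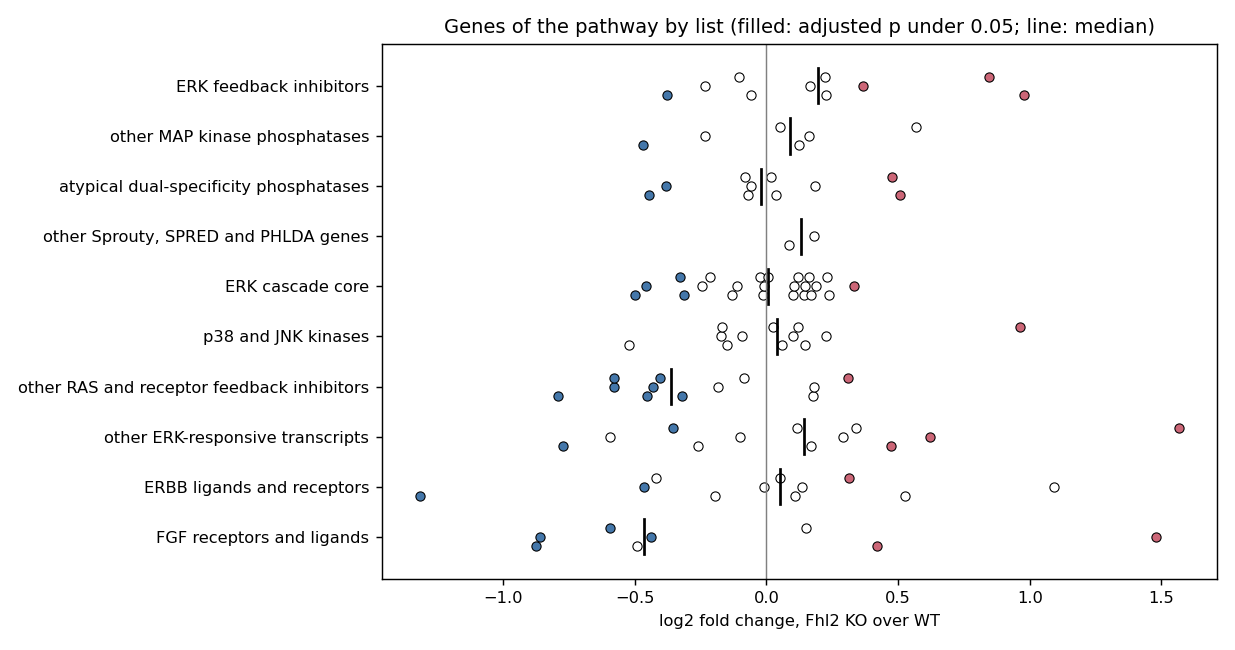
Log2 fold change of every tested gene of 10 lists around the ERK pathway, with a black line at each list's median. Red symbols rose and blue symbols fell past adjusted p 0.05; vertical spread within a list only separates points.

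Other sets of genes were read beside the pathway, where 29.0% of all genes tested were called in either direction (23.6% after the correction). Of 16 genes known to respond to tissue dissociation, all tested, 4 rose (Junb, Jund, Atf3 and Ier2) and 3 fell (Fos, Hspa1b and Hsph1). After the correction 3 rose and 3 fell, with Ier2 (0.36, corrected 0.13) no longer past the threshold. The summed levels of the 16 genes overlapped, at 4973 to 6663 CPM in WT and 5286 to 6084 CPM in KO. This set is not separate from the pathway, as Fos and Egr1 were also counted among the ERK-responsive transcripts. Of 7 surface epithelium markers 4 rose (3 after the correction), among them Krt7 from 1.86 ± 0.521 to 9.98 ± 2.89 CPM. The summed level was 109 to 126 CPM in WT and 139, 162 and 181 CPM in KO libraries 1 to 3. Of 8 smooth muscle and pericyte markers 4 fell (5 after the correction) and 7 were tested, and Rgs5 was at 0 counts in every library. Their summed levels were 885 to 978 CPM in WT and 468 to 546 CPM in KO, most of it Acta2 (882 ± 38.1 to 491 ± 40.4 CPM). Of 7 stroma markers 4 fell, also after the correction (155 to 195 CPM in WT, 51.04 to 68.6 CPM in KO), in a sum where Col1a1 and Col1a2 weighed most. Both tested lung markers rose, and the 7 listed summed to at most 0.239 CPM in WT and to 11.2, 27.2 and 0.966 CPM in KO libraries 1 to 3. Of 8 leukocyte markers 6 were tested and 0 were called by edgeR, 0 at unadjusted p under 0.05 and 0 by DESeq2 (22.6 to 24.4 CPM in WT, 22.3 to 26.04 CPM in KO, with Cd3e at 0), and the same held for the 4 tested endothelial markers (1.69 to 2.57 CPM in WT, 1.69 to 2.56 CPM in KO). Red cell markers summed to at most 0.597 CPM in any library, and none was tested. Of 7 tested oocyte markers 1 fell, and the list summed to 3.25 to 8.78 CPM in WT and 4.65 to 11.8 CPM in KO. Of 2 tested theca markers 1 fell, with sums of 44.5 to 49.0 CPM in WT and 30.5 to 35.6 CPM in KO. That gene was Ptch1, which made up most of the theca sum (47.0 ± 2.00 to 32.3 ± 2.72 CPM). Its log2 fold change was -0.54, and -0.066 after the correction (edgeR adjusted p = 0.607), so no theca marker passed there. The part of these cell types in the differences of Dusp4, Phlda1, Dusp6 and Spred2 was not tested.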

How the data were processed

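The authors deposited raw counts, whole-number reads for each gene symbol, with 1 column a library. Per the labels' protocols, TRIzol was used for RNA and a stranded kit for the mRNA libraries. Tools named in the submitters' processing notes, without role or order, were DESeq2 1.28.1, Cufflinks 2.2.1, featureCounts 1.6.4, SAMtools, HISAT2 2.2.1 and fastp, with build mm10. Neither annotation release nor strand setting is given there.

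The fit used edgeR 4.0.16 under R 4.3.3: genes kept by filterByExpr (minimum count 10), TMM scaling, robust glmQLFit and glmQLFTest on genotype, with Benjamini-Hochberg adjustment over the 15798 genes tested. A call is an adjusted p under 0.05, and SEs come from the F statistic. CPM are TMM-scaled. TPM used merged exons of GENCODE M21 (mm10). For corrected values, splines (4 degrees of freedom) of log2 CPM on transcript length and GC, fitted per library on genes above 1 CPM, entered as offsets for 15574 genes. On data simulated for this comparison (15559 genes), 91.5% of 200 genes changed 2-fold were recovered, with 9 false calls. The simulation gave both groups the same spread and no length trend. It held no smaller changes, so it does not tell how often those are missed. The 10 genes, the lists and the alternatives were chosen with earlier results of these data known. Named genes are the members, up to 4 of each other pathway list by smallest p, the 2 nearest profiles of each called member and Fhl2; others are identified where they appear, and marker genes illustrate their lists.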

Additional observations from a re-analysis of the deposited data

Results flagged for a closer look

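Of 64 named genes tested, 5 had 1 WT library far from the other 3, by a test that flags about 1 in 20 groups by chance. Among the ERK feedback inhibitors this was Spred1, whose lowest WT library, library 1, stood at 36.3 CPM against 40.8 CPM for the next. Dusp10 was high in WT library 4, at 73.9 CPM against 58.5 CPM for the next, Dusp18 was low in WT library 1, at 13.3 CPM against 14.0 CPM, and Rasal2 was high in WT library 3, at 35.3 CPM against 30.7 CPM. Sftpc, a lung marker, had reads in WT library 1 (0.103 CPM, near the floor) and 0 counts in the other WT libraries.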

How the results depend on the processing

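The 17 alternatives were DESeq2 1.42.0, median-of-ratios scaling, scaling by library totals, dropping the low-count filter, a filter of 10 CPM in 3 libraries, a block for the replicate number, each library left out (without WT library 4, the same 6 libraries unblocked), KO library 1 as the lone KO sample (assumed to vary like WT), 2 length corrections and no robust estimation. Dusp4 passed in all of them, and Phlda1 in all but KO library 1 alone (0.88). Genes past the threshold numbered 4588, 2960 in the 6 libraries unblocked and 781 for KO library 1 alone, with 1657 (without KO library 3) to 6740 (without KO library 1) when 1 library was left out. Members past it numbered 4, 1 for KO library 1 alone, and 2 to 5 when 1 library was left out (2 where WT 1, WT 3, KO 2 or KO 3 was absent). Leaving out 1 library, the log2 fold change ran from 0.12 to 0.34 for Dusp5, 0.28 to 0.47 for Dusp6, -0.56 to -0.26 for Spred2, -0.14 to 0.013 for Spry1 and -0.39 to 0.085 for Spry4. For KO library 1 alone it was 0.0044 for Dusp5, 0.34 for Dusp6, -0.037 for Spred2 and 0.37 for Spry4. Spred2 also lost its call with library totals (-0.34), the 6 libraries (-0.31) and both corrections (-0.24 for length and GC, -0.24 for length alone). Under these corrections Spred1 turned to 0.038 and 0.043, Spry4 to 0.053 and 0.048, Nf1 to 0.088 and 0.062, and Phlda3 to -0.044 and -0.018. For KO library 1 alone Phlda3 turned to -0.11, Map2k4 to 0.028 and Egr1 to 0.16, and Egr1 to 0.036 with length alone. The cause of these changes was not tested. Scaling by the longest transcript kept the order of the 10 levels per length. Same-numbered libraries did not deviate together (r of -0.0324 to 0.0326), so their numbers are not taken to pair the samples; with the replicate block 3301 genes and 3 members passed, and Spred2 stood at -0.34. The filter of 10 CPM removed Spry1, Spry4 and other low genes, which have no value there. Depth limits Spry4, at 98 to 180 reads per library.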
